A study of Homo sapiens with 24 samples.

Results

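The PIEZO channels and other channel genes that answer to mechanical force or to acid were examined in cultures of human sensory neurons exposed to cytokines. The 10 genes were PIEZO1, PIEZO2, TMEM63A, TMEM63B, TMEM63C, KCNK2, KCNK4, ASIC1, ASIC2 and ASIC3, chosen by symbol from the 36468 entries of the count table, and each symbol had 1 entry. H9WAO9 cells, a wild-type line of human pluripotent stem cells, had been taken through vagal neural crest spheroids to sensory neurons, in 6 batches of differentiation. In each batch, 1 culture received vehicle (BSA in PBS), 1 received TGF-β at 2 ng/ml, 1 received IL-4 at 10 ng/ml with IL-13 at 3 ng/ml, both for 5 days, and 1 received IL-6, whose dose and time are not given in the sources used here. The polyA RNA of each culture was sequenced as 1 library, which gave 24 libraries of 33342682 to 39817784 counts. All batches came from 1 cell line, and each library held a whole culture in which neurons were mixed with other cells.

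PIEZO1 and PIEZO2 form cation channels that open when the membrane is stretched, and PIEZO2 is the main channel of touch, proprioception and lung stretch in sensory neurons. TMEM63A, TMEM63B and TMEM63C belong to a family of channels gated by membrane tension and osmotic change. KCNK2 (TREK-1) and KCNK4 (TRAAK) are potassium channels that mechanical force opens and that damp excitability. ASIC1, ASIC2 and ASIC3 encode subunits of sodium channels opened by extracellular protons, which sensory neurons use to detect acid.

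Markers of neurons were present in every library, from 7989 to 43547 counts for TUBB3 and from 10166 to 85934 for STMN2. Markers of mesenchyme were also high, with 25627 to 272161 counts for COL1A1, whereas SCN10A, a sodium channel gene of nociceptors, was at 0 in 8 libraries and reached at most 25 counts. After the treatment means were removed over 15260 genes, the 36 pairs of libraries within a batch had a median r of 0.665, and the 180 pairs across batches had -0.158. The vehicle library labelled batch 2 stood apart from its own batch (mean r = 0.03) and was closest to batch 4 (0.507), and the vehicle library labelled batch 4 was closest to batch 2 (0.489, against 0.151 for its own). The cytokine-treated libraries of batch 4 were closest to batch 3. The labels were kept as given, and comparisons with vehicle are therefore also given without batches 2 and 4, a choice made after the data were seen.

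The annotated span of PIEZO1 on chromosome 16 of GRCh38.p14 (88715338 to 88785220, minus strand) overlaps CTU2, MIR4722, HSALR1 and PIEZO1-AS1, and that of PIEZO2 lies on chromosome 18 (10670247 to 11149569, minus strand). The span of TMEM63A overlaps EPHX1, that of TMEM63B overlaps MRPL14, and KCNK4 shares its locus with the readthrough gene KCNK4-CATSPERZ. ASIC2, on chromosome 17 (33013087 to 34156768), overlaps 14 annotated genes, among them ASIC2-AS1 and ASIC2-AS2. Since the strandedness of the counts is not known, reads from these overlaps cannot be assigned to one gene. The 250 bases before the annotated start of both PIEZO genes are shown because PIEZO1 was the gene of the 10 that passed a treatment comparison while PIEZO2 did not. They are RefSeq sequence of GRCh38.p14 on the minus strand, from chr16:88785221-88785470 for PIEZO1 and from chr18:11149570-11149819 for PIEZO2, with the letters TATAAA (the TATA box) and GGGCGG (the GC box that SP factors bind) in capitals.
PIEZO1: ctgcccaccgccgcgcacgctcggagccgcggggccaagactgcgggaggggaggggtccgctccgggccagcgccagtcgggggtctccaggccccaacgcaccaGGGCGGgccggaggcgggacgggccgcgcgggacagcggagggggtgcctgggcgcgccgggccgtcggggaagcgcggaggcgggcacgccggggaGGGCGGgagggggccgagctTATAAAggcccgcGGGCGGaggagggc
PIEZO2: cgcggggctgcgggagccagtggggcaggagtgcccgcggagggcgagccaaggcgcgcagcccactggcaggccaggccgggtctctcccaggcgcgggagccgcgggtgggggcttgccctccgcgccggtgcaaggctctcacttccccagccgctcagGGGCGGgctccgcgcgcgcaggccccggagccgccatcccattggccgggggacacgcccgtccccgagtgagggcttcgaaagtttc
The PIEZO1 window held 1 match to TATAAA, 27 bases before the start, and 3 matches to GGGCGG. The PIEZO2 window held no TATAAA and 1 match to GGGCGG, 88 bases before the start. Over 35116 annotated promoters of the same length, 10.72% held TATAAA and 42.64% held GGGCGG on either strand. The GC content was 81.2% for PIEZO1 and 76.8% for PIEZO2, against a median of 58% over all promoters. Letters that STAT factors (TTC and GAA with 4 bases between), SMAD factors (GTCTG) or TEAD factors (GGAATG) bind were in neither window, and were in 5.376%, 38% and 11.89% of all promoters. These matches are a description of the letters and were not set against the counts.

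All 10 genes were detected in all 24 libraries, with the fewest counts for KCNK2 (6) and KCNK4 (10), both in the vehicle library of batch 1. To compare levels between genes, normalized counts were divided by the length of the gene's merged exons, pooled over its annotated transcripts. The order depends on this length, which was 21 kilobases for PIEZO2 and 4.425 for TMEM63B. Before the division, their mean log2(normalized count + 1) in vehicle was 12.09 and 12.12. In vehicle cultures, TMEM63B had the highest level, 1006 ± 71.8 normalized counts per kilobase (SD, n = 6). It was followed by ASIC1 with 359 ± 110, ASIC2 with 303 ± 160, PIEZO2 with 227 ± 91.6, TMEM63C with 214 ± 56.0 and PIEZO1 with 120 ± 65.2 (each SD, n = 6). The lowest levels were those of ASIC3 (57.8 ± 19.1), TMEM63A (50.2 ± 32.3), KCNK4 (26.96 ± 12.58) and KCNK2 (19.21 ± 13.98; each SD, n = 6). TMEM63B lay above ASIC1 in 6 of 6 batches without overlap. The ranges of every other pair of neighbours in this order overlapped, and PIEZO2 was higher than TMEM63C in only 2 of 6 batches. PIEZO2 ranged from 102 to 337 and PIEZO1 from 73.1 to 247 normalized counts per kilobase in vehicle, so that these genes also overlapped. The order below TMEM63B was therefore not resolved between neighbours.

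**Figure D1:**
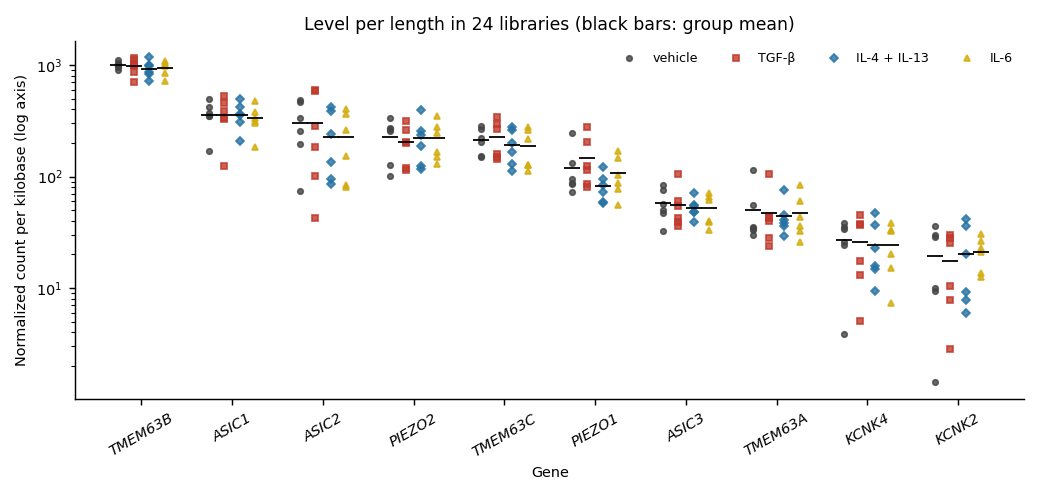
Normalized count per kilobase of merged exon (log axis) of the 10 channel genes in each of the 24 libraries, coloured by treatment, with a black bar for the mean of each group of 6. TMEM63B, at 911 to 1122 in vehicle, lies above all other genes, and the 4 groups of each gene overlap.

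In every batch, the TGF-β culture had more PIEZO1 than its IL-4 + IL-13 counterpart. Levels are given below as log2(normalized count + 1). Under TGF-β they ran from 9.82 over a median of 10.40 to 11.61, under IL-4 + IL-13 from 9.35 over 9.79 to 10.44, under vehicle from 9.69 over 10.02 to 11.45, and under IL-6 from 9.31 over 10.07 to 10.91. The groups overlapped across batches, since PIEZO1 differed between batches by more than between treatments, and the comparison was made within batches. From batch 1 to batch 6, the TGF-β culture exceeded the IL-4 + IL-13 culture by 1.18, 0.47, 0.65, 0.39, 1.29 and 0.54 on the log2 scale. The fitted log2 difference was 0.74 (SE 0.15, 95% interval 0.42 to 1.07), a 1.67-fold higher level under TGF-β, with an adjusted p of 0.0211 in edgeR and 0.00044 in DESeq2. PIEZO1 was the 1 of 10 channel genes with an adjusted p under 0.05 in this comparison, where 1.83% of 28701 genes tested had one. Its difference was under the log2 of 1 that a call also required, so that 0 of 10 were called, against 0.895% of all genes.

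The direction of this PIEZO1 difference was the same without any one batch, but the adjusted p did not stay under 0.05. It was 0.0732 without batch 1, 0.104 without batch 3, 0.223 without batch 5 and 0.0738 without batch 6, against 0.0340 without batch 2 and 0.0107 without batch 4. Without both batches 2 and 4 the difference was 0.91 (adjusted p = 0.00892), and without batch as a term it was 0.85 with an adjusted p of 1. The share of PIEZO1's variance in level was 68.2% between batches and 19.6% between treatments. Since libraries came from whole cultures, fewer cells that express a gene and less RNA per cell cannot be told apart here. Genes of other cell types differed in the same comparison. COL1A1, the mesenchyme collagen gene, was higher under TGF-β in 6 of 6 batches (log2 difference 1.31, SE 0.28, adjusted p = 0.0275). It was the 1 of 7 mesenchyme markers that passed, and their summed normalized counts ran from 160705 to 499379 under TGF-β and from 107891 to 269205 under IL-4 + IL-13, with none of the 7 at 0 in any library. The mesenchyme sum and the sum of the glial markers were each higher under TGF-β in 6 of 6 batches. Single markers were divided. Of 7 mesenchyme markers, 4 were fitted higher under TGF-β and 3 lower, with a median log2 difference of 0.07. Of 7 glial markers, 4 were likewise higher and 3 lower, with a median of 0.28. COL1A1 and COL1A2 (58894 to 155556 counts) had the most counts of the mesenchyme list and weigh most in its sum. The summed glial markers ran from 3424 to 6252 under TGF-β and from 2263 to 4042 under IL-4 + IL-13, with CDH19 at 0 in 11 of all libraries. The summed nociceptor markers ran from 1516 to 10365 and from 2636 to 8142. Of 7 glial markers 1 passed, higher under TGF-β, and of 7 nociceptor markers 1 passed, lower under TGF-β. The part of these cells in the PIEZO1 difference was not tested.

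**Figure D2:**
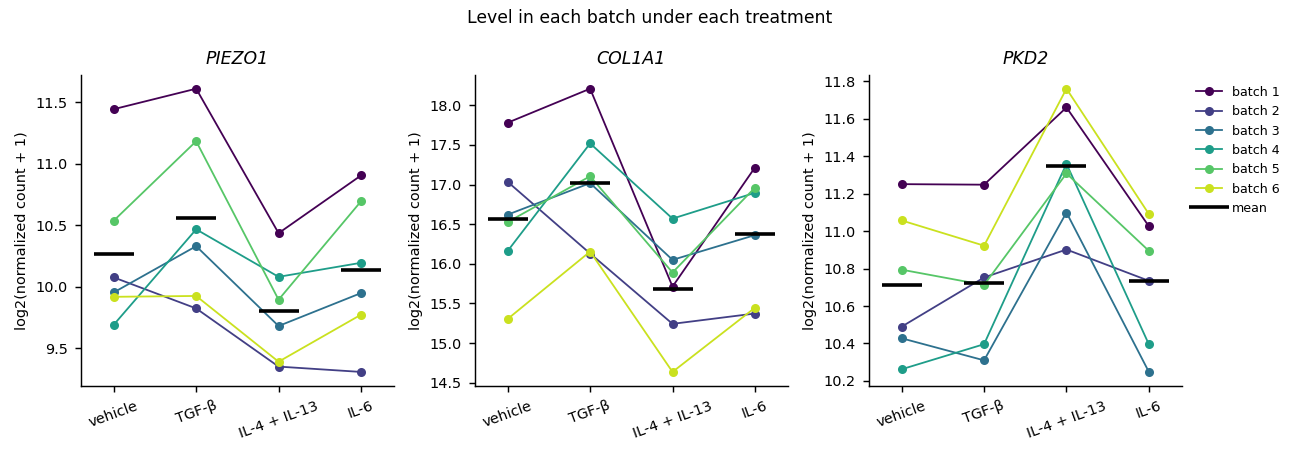
Level, as log2(normalized count + 1), of PIEZO1, COL1A1 and PKD2 in each culture, with a line for each of the 6 batches and a black bar for the mean of each treatment. PIEZO1 and COL1A1 are lower under IL-4 + IL-13 than under TGF-β in all 6 batches, and PKD2 is higher in all 6.

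Against vehicle, none of the 10 channel genes passed the adjusted threshold under any treatment, in edgeR or in DESeq2. These comparisons share the vehicle libraries. Over all genes tested, 0.0418% passed under TGF-β, 0.324% under IL-4 + IL-13 and 0% under IL-6 in edgeR, and 0.0209%, 0.251% and 0% were called with a log2 fold change beyond 1. At an unadjusted p under 0.05, 0 of the 10 passed under TGF-β (6.08% of all genes), 1 under IL-4 + IL-13 (7.47%) and 1 under IL-6 (4.77%). The gene under IL-4 + IL-13 was PIEZO1, whose fitted log2 difference from vehicle was -0.46 (SE 0.15, 95% interval -0.78 to -0.14, adjusted p = 0.415 in edgeR and 0.161 in DESeq2). It was lower than vehicle in 5 of 6 batches and higher by 0.39 in batch 4. Under TGF-β, PIEZO1 differed from vehicle by 0.28 (SE 0.15, adjusted p = 0.897). It exceeded vehicle in 5 of 6 batches and stood at -0.25 in batch 2. Both exceptions fell in the batches whose vehicle library stood apart. Without batches 2 and 4, the TGF-β cultures differed from vehicle in PIEZO1 by 0.30 (adjusted p = 0.729), those with IL-4 + IL-13 by -0.61 (adjusted p = 0.112) and those with IL-6 by -0.14 (adjusted p = 1).

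PIEZO2, the stretch channel of sensory neurons, had a level of 12.09 ± 0.69 in vehicle, 11.96 ± 0.59 under TGF-β, 12.05 ± 0.67 under IL-4 + IL-13 and 12.09 ± 0.56 under IL-6 (SD, n = 6 each). Its fitted log2 differences from vehicle were -0.13 (95% interval -0.32 to 0.05), -0.04 (-0.23 to 0.14) and -0.01 (-0.20 to 0.18). The intervals of PIEZO2 were among the narrow ones of the 10 genes, and a change of 1 log2 unit lay outside all of them. TMEM63B was held with similar precision, with differences of -0.06 (-0.23 to 0.11) under TGF-β, -0.13 (-0.30 to 0.04) under IL-4 + IL-13 and -0.10 (-0.25 to 0.04) under IL-6. TMEM63A differed from vehicle by -0.08, -0.07 and -0.02 under the same treatments. TMEM63C was the gene under IL-6 with an unadjusted p under 0.05, at -0.26 (95% interval -0.52 to -0.01, adjusted p = 0.850). It was lower than vehicle in 5 of 6 batches and its largest difference, -1.07, was that of batch 2. Without batches 2 and 4 the difference of TMEM63C was -0.19 (adjusted p = 1).

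The potassium channel genes KCNK2 and KCNK4 were measured with few counts, 6 to 182 and 10 to 114 per library, and their intervals were wide. KCNK2 differed from vehicle by -0.13 under TGF-β (95% interval -1.10 to 0.83), by 0.18 under IL-4 + IL-13 (-0.80 to 1.15) and by 0.42 under IL-6 (-0.46 to 1.295), where single batches ran from -0.49 to 2.95. KCNK4 differed by -0.15 under TGF-β (-0.77 to 0.46), by -0.13 under IL-4 + IL-13 (-0.76 to 0.49) and by -0.15 under IL-6 (-0.68 to 0.37). Changes within these bounds cannot be told from no change for either gene.

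Among the acid-sensing channel genes, ASIC1 differed from vehicle by -0.04 (95% interval -0.27 to 0.19) under TGF-β, 0.03 (-0.20 to 0.26) under IL-4 + IL-13 and -0.10 (-0.30 to 0.10) under IL-6. ASIC3, the subunit best known from acid-sensing pain fibres, differed by -0.07, -0.09 and -0.13. The differences of ASIC2 were larger, at -0.31 (-1.05 to 0.43), -0.49 (-1.23 to 0.25) and -0.56 (-1.24 to 0.12), but none passed (adjusted p = 1, 0.799 and 0.850). These intervals were wider than those of KCNK4, although ASIC2 had many more counts. They rested on batch 2, without which they were 0.12, -0.07 and -0.07. In that batch the vehicle library had an ASIC2 level of 11.44, whereas the level was 9.23 with TGF-β, 9.14 with IL-4 + IL-13 and 8.97 with IL-6. Without batches 2 and 4 the ASIC2 differences were -0.07, -0.15 and -0.11. Over the 10 genes the median log2 difference from vehicle was -0.08 under TGF-β, -0.11 under IL-4 + IL-13 and -0.12 under IL-6, where the medians of all genes tested were -0.0026, -0.00078 and -0.013. Between TGF-β and IL-4 + IL-13 the median was 0.0034, and 5 of 10 genes were higher under TGF-β.

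**Figure D3:**
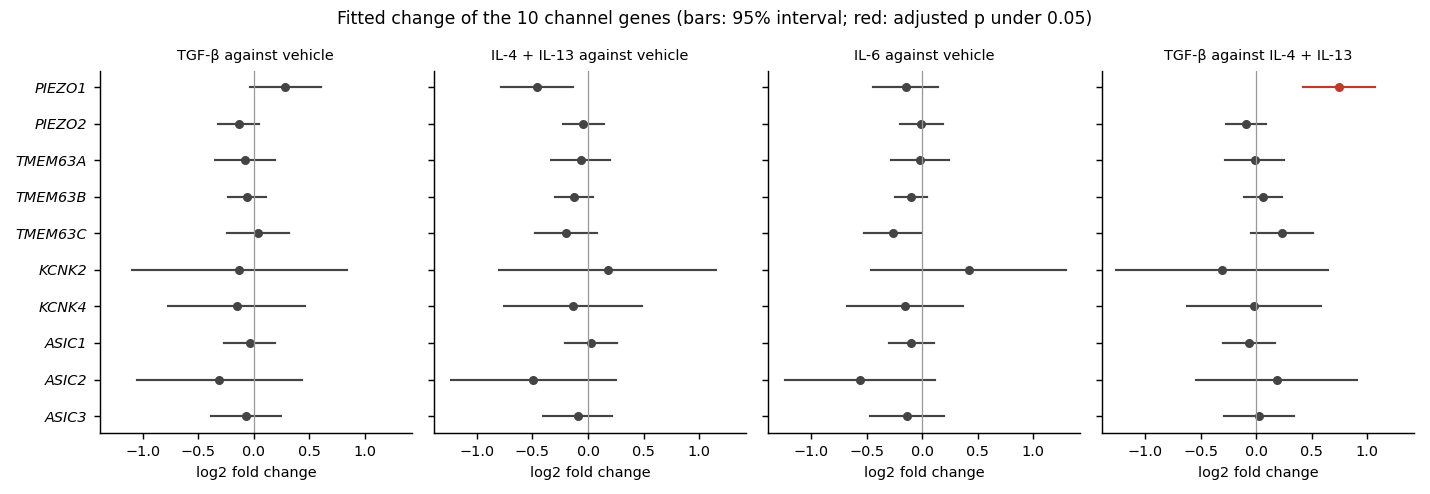
Fitted log2 fold change of the 10 channel genes in the 4 comparisons (x axis), with bars for the 95% interval and red for an adjusted p under 0.05. PIEZO1 between TGF-β and IL-4 + IL-13, at 0.74, is the 1 red point, and KCNK2 has the widest bars.

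All 10 channel genes differed between the 6 batches, with adjusted p from 7.09e-09 for PIEZO2 to 0.0035 for KCNK2 (edgeR, F test over all 24 libraries). Differences between batches were common, as 56.8% of 29377 genes tested passed, so the count of 10 is not particular to these channels. Batch means of ASIC2 ranged over 2.78 log2 units, those of KCNK2 over 2.68 and those of KCNK4 over 2.65, whereas those of TMEM63B ranged over 0.54. The share of variance between batches was 93.8% for PIEZO2, 91.2% for ASIC1 and 90.7% for TMEM63A, and the share between treatments was 0.87%, 0.79% and 0.34%. All 10 also passed in DESeq2, and in edgeR without the vehicle libraries.

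Batch 1 lay at one end of the batches for 8 of the 10 channel genes. The share of all genes with batch 1 at one end was not counted. The 8 are therefore not read as particular to these channels. It had the lowest mean of 6 genes, TMEM63C, KCNK2, KCNK4, ASIC1, ASIC2 and ASIC3, and the highest mean of PIEZO1 and TMEM63A. Relative to the mean of the other batches, batch 1 was at -2.10 for KCNK4, -1.95 for KCNK2, -1.91 for ASIC2 and -1.18 for ASIC1 on the log2 scale, and at 1.09 for PIEZO1 and 1.35 for TMEM63A. In the other batches the order was mixed. PIEZO1 and ASIC2 were both below their mean over batches in batches 2 and 6 and both above it in batch 5, they lay on opposite sides of it in batches 3 and 4, and KCNK2 was highest in batch 6. PIEZO2 was highest in batch 4, with a mean of 12.83, and lowest in batch 6, with 11.24. The cell markers moved with these batches. The summed neuron markers were lowest in batch 1, with a mean of 70680 normalized counts against 128809 to 228679 in the other batches, and the summed mesenchyme markers were highest there, with 346322 against 133135 to 284858. The neuron markers were lowest in batch 1 for 7 of 7 genes. The mesenchyme markers were divided, since COL1A1, COL1A2, PDGFRA and PDGFRB were highest there and COL3A1, DCN and LUM were lowest, at -1.46, -2.42 and -2.93 against the other batches. The epithelial sum was also highest in batch 1 (28478 against 9086 to 13147), with KRT8 and KRT18 highest there and EPCAM lowest (-0.69). No marker of the neuron, mesenchyme or epithelium lists was at 0 in any library. The part of cell composition in the batch differences of the channel genes was not tested.

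**Figure D4:**
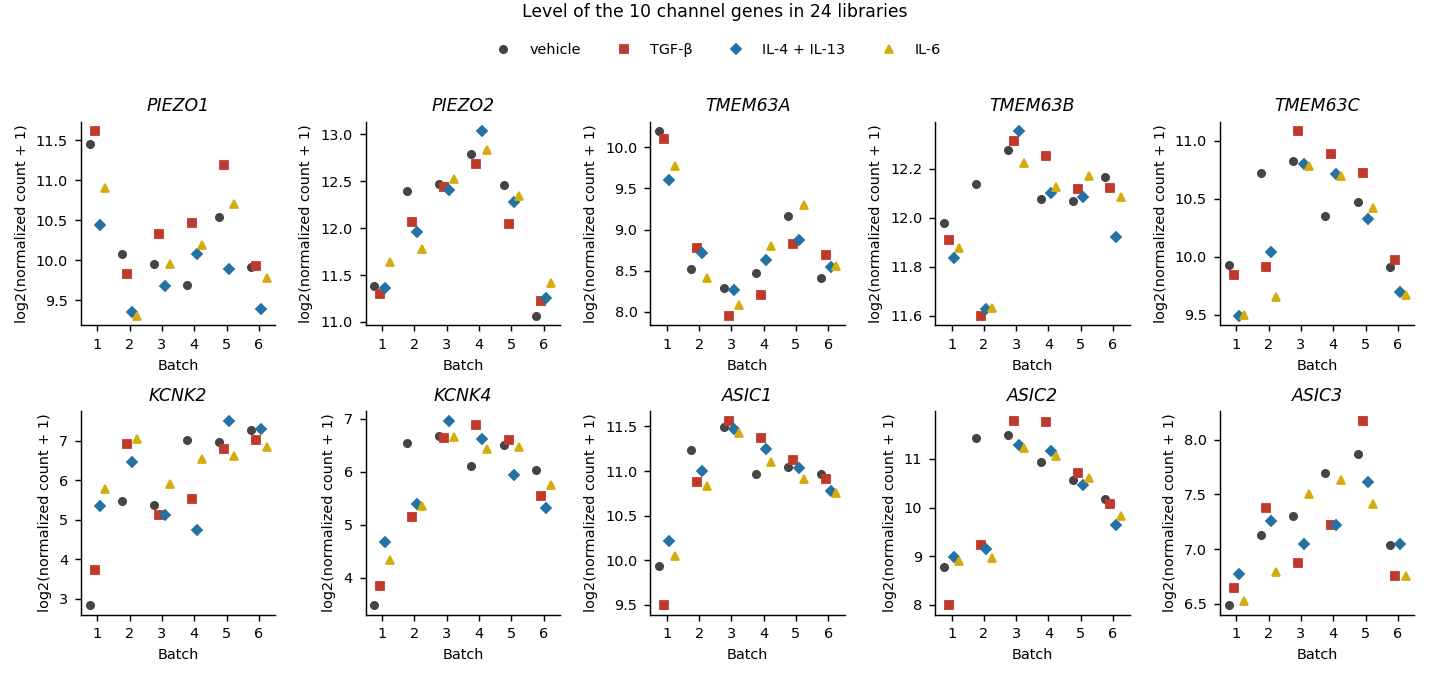
Level, as log2(normalized count + 1), of each of the 10 channel genes in the 24 libraries by batch, with 1 symbol per treatment. Within most batches the 4 treatments lie close together, and in batch 2 the vehicle library (black) lies apart for ASIC2, TMEM63B, TMEM63C and KCNK4.

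**Figure D5:**
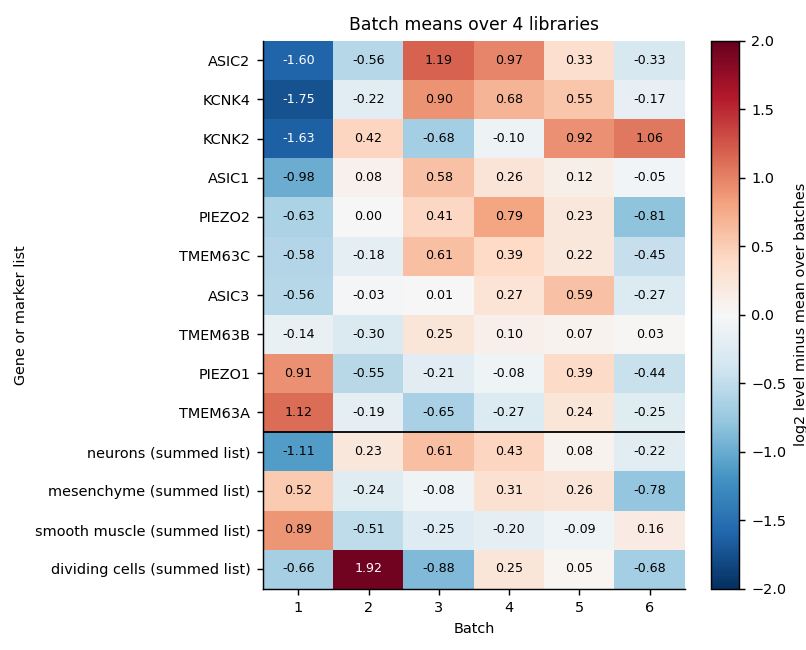
Batch mean over 4 libraries minus the mean over batches, in log2 units, for the 10 channel genes (above the line) and for the summed counts of 4 marker lists (below it). In batch 1, PIEZO1 (0.91) and TMEM63A (1.12) are red with the sums of mesenchyme (4 of 7 markers highest in batch 1, 3 lowest) and smooth muscle (3 of 4 highest), and ASIC1 (-0.98), ASIC2, KCNK2 and KCNK4 are blue with neurons.

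For each channel gene with a mean count of at least 100, the most similar genes over the 24 libraries were taken from 12559 symbols with the same minimum. KCNK2 and KCNK4, with means of 84.9 and 67.2 counts, were left out. The libraries share batches, batch composition and treatments, none of which was removed here, so these values describe likeness and were not tested. For PIEZO1 the most similar genes were NOX4 (Pearson r = 0.951), FSTL3 (0.949) and SPOCD1 (0.949), and for TMEM63A they were FZD2 (0.963), TMEM243 (0.953) and RASSF3 (0.951). NOX4 encodes an NADPH oxidase and FSTL3 a secreted inhibitor of activins. For PIEZO2 they were THEM6 (0.921), PIRT (0.919) and PDZD7 (0.908), of which PIRT is a membrane protein of peripheral sensory neurons. TMEM63C was most like TMC3 (0.981), ABCG4 (0.977) and ACHE (0.976), and TMEM63B most like MBP (0.969), ST6GAL1 (0.964) and TMEM176B (0.948). ASIC1 was most like PTPRN2 (0.985), GNAO1 (0.981) and RBFOX3 (0.980), where RBFOX3 is the NeuN antigen of neurons. ASIC2 was most like FBXO41 (0.988), SLC7A14 (0.987) and EPB41L1 (0.987), and ASIC3 was most like ACAP3 (0.879), HSF4 (0.875) and QRICH2 (0.857). Against the summed neuron markers, r was 0.969 for ASIC1, 0.920 for KCNK4 and 0.855 for ASIC2, and -0.546 for PIEZO1 and -0.889 for TMEM63A. After batch and treatment means were removed, r with the neuron sum was 0.88 for ASIC1, 0.80 for KCNK4 and -0.064 for PIEZO1. On that scale PIEZO1 had -0.88 with the sum of markers of dividing cells, 0.73 with that of epithelium, -0.71 with that of glia and 0.70 with that of mesenchyme, and among the channel genes 0.83 with TMEM63C and -0.83 with KCNK2. These values include the vehicle libraries of batches 2 and 4, which stood apart, and r was not taken without them. In batch 2 the sum of dividing-cell markers was 1882 in vehicle and 10276 to 14165 in the treated cultures.

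Of 13 other channel genes linked to mechanical force, 1 passed under IL-4 + IL-13 (0.324% of all genes) and 1 between the treatments (1.83%). Both times it was PKD2, at less than the log2 of 1 that a call also required. At an unadjusted p under 0.05 in edgeR, 1 passed under TGF-β (6.08% of all genes) and 1 under IL-4 + IL-13 (7.47%). Under IL-6 it was 0 (4.77%), and between TGF-β and IL-4 + IL-13 it was 4 (10.5%). PKD2, the calcium-permeable channel of primary cilia, rose under IL-4 + IL-13 in 6 of 6 batches, from 10.71 ± 0.39 in vehicle to 11.35 ± 0.33 (SD, n = 6 each), a log2 difference of 0.65 (SE 0.09, adjusted p = 0.00878). Without batch 3, 5 or 6 the adjusted p of PKD2 was 0.0816, 0.0952 and 0.0763, and without batch as a term it was 1 (difference 0.63). Between TGF-β and IL-4 + IL-13, PKD2 differed by -0.63 (adjusted p = 0.00367, and 0.767 without batch as a term), opposite in sign to PIEZO1. The median log2 difference of the 13 genes was 0.06 under TGF-β, -0.0079 under IL-4 + IL-13 and 6.53e-06 under IL-6. LRRC8C, a subunit of the volume-regulated anion channel, had the smallest p of the list under TGF-β, at -0.39 (adjusted p = 0.490).

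None of 11 partners and regulators of PIEZO channels passed in edgeR in any of the 4 comparisons, and 1, 0, 0 and 3 had an unadjusted p under 0.05 under TGF-β, IL-4 + IL-13, IL-6 and between TGF-β and IL-4 + IL-13, where 6.08%, 7.47%, 4.77% and 10.5% of all genes had one. MDFIC, whose protein binds PIEZO channels and slows their inactivation, differed from vehicle by -0.37 under TGF-β, lower in 6 of 6 batches, with an adjusted p of 0.150 in edgeR and 0.00149 in DESeq2. Between TGF-β and IL-4 + IL-13, DESeq2 also gave an adjusted p under 0.05 to MDFIC (-0.28, 0.0211), STOML3 (-1.33, 0.0131) and MDFI (0.51, 0.0340), where edgeR gave 0.131, 0.141 and 0.146. The median log2 difference of the list was -0.0044, 0.02, 0.01 and -0.02 in the 4 comparisons. The highest levels of this list in vehicle were those of ATP2A2, the SERCA calcium pump (14.04 ± 0.20), and ANXA6 (13.15 ± 0.25; SD, n = 6 each).

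None of the 12 other proton sensors tested passed in edgeR, and 0, 1, 1 and 1 had an unadjusted p under 0.05 in the same order of comparisons, with the same shares of all genes. The median of the 12 genes was 0.10 under TGF-β, -0.23 under IL-4 + IL-13, -0.23 under IL-6 and 0.09 between TGF-β and IL-4 + IL-13. The highest levels in vehicle were those of KCNK3 (11.21 ± 0.95) and ASIC4 (10.46 ± 1.05; SD, n = 6 each). ASIC5, KCNK18, OTOP1, OTOP2, OTOP3 and GPR65 stayed under 10 counts in every library, and OTOP1 was too low to be tested. Known targets of the cytokines were examined in the same cultures. Under IL-4 + IL-13, CCL26 had 223 to 2047 counts against 0 to 5 in vehicle and CISH 420 to 1251 against 28 to 75 (edgeR adjusted p = 1.7e-05 and 0.00046). None of the 6 targets passed under TGF-β or under IL-6, and 0 had an unadjusted p under 0.05 in either.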

How the data were processed

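PolyA RNA of 24 cultures was sequenced on an Illumina NovaSeq. The deposited table holds raw counts of reads for each gene entry. The authors' sequencing provider made them by adapter trimming with Trimmomatic (0.30), alignment to GRCh38.p14 and counting, with no normalization and no pooling. The aligner, the counter and the strandedness are not given in the sources used here.

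A gene entered a fit if its libraries summed to at least 10 counts. Differences were tested with edgeR 4.0.16, using TMM scaling and the robust quasi-likelihood F test with batch and treatment as terms, and p values were adjusted after Benjamini-Hochberg over every gene in the fit. The fit held 18 libraries, or all 24 for IL-6 and for the batches. DESeq2 1.42.0 was the alternative tool. "Passed" means an adjusted p under 0.05, and "called" means that the log2 fold change was also beyond 1 or -1. Standard errors were derived from the fold change and the F statistic. Batches come from the labels, and the same-batch correlations given in the report are the check of that pairing. P values of treatments rest on how far the differences within batches vary from batch to batch, all of 1 line. Those of the batch test rest on the spread of libraries within a batch after treatment is fitted.

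Levels are log2(normalized count + 1) with DESeq2 size factors. Lengths are merged exons of GENCODE v44, and loci and promoters are those of RefSeq, which held all 10 genes. Scripts were tested on simulated data. The 10 genes and the lists were chosen with earlier results of these data known. Named beside the 10 are up to 3 genes per list and comparison with the smallest p, the 2 highest levels per list and genes under 10 counts. The 3 genes most like each channel gene with a mean count of at least 100 are named too. COL1A1 and the other cell markers given by name were named after their values were seen. Some genes that these rules name are not reported here.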

Additional observations from a re-analysis of the deposited data

Results flagged for a closer look

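Of 40 groups of 6 libraries (10 channel genes in 4 treatments), 3 held a library far from the others, by a gap that chance exceeds in about 1 of 20 groups. All 3 were libraries of batch 1. The vehicle library had a log2(normalized count + 1) of 3.48 for KCNK4 (10 counts), where the nearest other vehicle library had 6.03. ASIC1 was at 9.93 in the same library (957 counts), with the nearest other at 10.96. Under TGF-β, ASIC1 was at 9.49 in batch 1 (646 counts), with the nearest other at 10.88. Batch 1 also had the lowest sum of neuron markers, and the part of this in the values was not tested.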

How the results depend on the processing

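Of 570 values of the 10 channel genes under alternative settings, 528 kept their direction and their side of the threshold, 5 lost the threshold and 37 changed sign. The PIEZO1 difference between TGF-β and IL-4 + IL-13 stayed past the threshold under RLE scaling, filterByExpr, no filter, the first entry of each symbol, all 24 libraries in the fit, DESeq2 and, chosen after the data were seen, the 12 libraries of these treatments alone, and its value ran from 0.62 to 0.83 with any one batch left out. Without the replicate block, that is without batch in the model, it was 0.85 (adjusted p = 1), and 0, 9 and 23 genes were called under TGF-β, under IL-4 + IL-13 and between them, against 6, 72 and 257 with the block. Under that setting ASIC1 changed sign under TGF-β (0.0087) and between the treatments (0.0042), as did TMEM63A (0.10) and KCNK4 (0.076) between the treatments. Calls under TGF-β were 13 with the first entry of each symbol, 1 without batches 2 and 4, 42 with all 24 libraries in the fit and 90 in DESeq2. Those under IL-4 + IL-13 were 109 with all 24 libraries and 170 in DESeq2, those between the treatments 444 and those under IL-6 120 in DESeq2, against 0 in edgeR. With any one batch left out, calls ran from 0 to 8 under TGF-β, from 20 to 81 under IL-4 + IL-13 and from 84 to 315 between them. The cause of these shifts was not tested.

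The sign changes were those of differences that did not pass. Not all of these were small, since ASIC2 under TGF-β was at -0.31 in the main fit and at 0.12 without batch 2. With filterByExpr TMEM63A was at 3.61e-05 between TGF-β and IL-4 + IL-13. Without batches 2 and 4, PKD2 was at -0.090 under TGF-β and -0.060 under IL-6, PIEZO2 at 0.13 and KCNK4 at 0.053 under IL-6, and TMEM63A at 0.067 and ASIC3 at -0.0053 between the treatments. With any one batch left out, values under TGF-β ran from -0.11 to 0.028 for TMEM63B, -0.056 to 0.20 for TMEM63C, -0.47 to 0.26 for KCNK2, -0.35 to 0.11 for KCNK4, -0.12 to 0.033 for ASIC1, -0.54 to 0.12 for ASIC2, -0.16 to 0.017 for ASIC3 and -0.044 to 0.038 for PKD2. Under IL-4 + IL-13 they ran from -0.10 to 0.041 for PIEZO2, -0.11 to 0.025 for TMEM63A, -0.22 to 0.68 for KCNK2, -0.36 to 0.12 for KCNK4 and -0.041 to 0.084 for ASIC1. Under IL-6 they ran from -0.075 to 0.11 for PIEZO2, -0.089 to 0.065 for TMEM63A, -0.28 to 0.10 for KCNK4 and -0.029 to 0.070 for PKD2. Between the treatments they ran from -0.10 to 0.068 for TMEM63A, -0.18 to 0.15 for KCNK4, -0.12 to 0.074 for ASIC1 and -0.10 to 0.071 for ASIC3. KCNK2 and KCNK4 had the lowest depth of the 10 genes, with means of 84.9 and 67.2 counts per library. Depth as the source of their wide intervals was not tested.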
